A study of Mus musculus with 8 samples.

Results

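Ikzf1, Ikzf2, Ikzf3, Satb1, Ets1, Runx1, Myb, Bcl11a, Mef2c and Erg encode nuclear factors that prepare blood progenitors for the lymphoid lineages, and their transcripts were followed in lymphoid progenitors that lack one or the other E protein. The 10 genes were taken by symbol, out of 18193 genes named singly on the array, with all 40 of their probe sets. A probe set is a group of short array probes that reads 1 transcript or a part of it, and the brightest one stood for its gene in the tests across genes. All 10 genes passed the filter on low signal (above the array median on at least 2 arrays), as did 36 of the 40 probe sets. The other 4, 1 of Ikzf2, 2 of Ikzf3 and 1 of Bcl11a, are given below with the rest.

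The study measured RNA of common lymphoid progenitors, bone marrow cells sorted by flow cytometry as LIN-FLT3+CD127+ and negative for LY6D, from C57bl/6 mice aged 10 to 13 weeks. The wild-type group (WT, 2 arrays) carried no listed mutation, the HEB knockout group (HEB-KO, 2 arrays) lacked the E protein made from Tcf12, and the E2A knockout group (E2A-KO, 4 arrays) lacked the E proteins made from Tcf3. Each array held cells pooled from several marrows, with at least 2 sorts per genotype. The sources used here do not name the alleles, and p-values measure the spread between pools, not between mice. Values are log2 of the deposited intensity, and differences are log2 differences between genotype means from 1 limma fit to all 8 arrays. "Rose" and "fell" are kept for a Benjamini-Hochberg adjusted p under 0.05 over all 11957 genes, or all 45037 probe sets, tested.

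Lymphoid priming is the low, early expression of lymphoid genes in progenitors that have not yet chosen a lineage. The Ikaros family of zinc finger proteins, the chromatin organiser Satb1 and factors of the Ets, Runx, Myb and Mef2 families open or maintain this program together with the E proteins, which are basic helix-loop-helix factors that bind the E-box sequence CANNTG. Ets1 and Erg share the ETS DNA-binding domain. Bcl11a is a zinc finger repressor needed for B-cell development.

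Tcf3 read 7.76 and 7.98 on the WT arrays and 3.71 to 4.28 on the E2A knockout arrays. Tcf12 read 8.85 and 8.76 in WT and 7.10 and 6.49 in HEB knockout cells. Both targeted genes were thus lowest in the genotype named for them. They were unlike in the signal that remained. Tcf3 on the E2A knockout arrays lay near the array medians (3.906 to 3.943), and Tcf12 on the HEB knockout arrays lay above theirs (3.819 and 3.84). Tcf3 read 8.57 and 8.44 in HEB knockout cells, above both WT arrays, without passing the test (0.63, SE 0.26). Of 10 markers listed for the sorted cells, 9 had a probe set and none was below the median on all arrays. Their summed signal was 14.44 to 14.58 (log2) in WT, 14.37 to 14.40 in HEB knockout and 13.20 to 13.68 in E2A knockout cells. Dntt was the brightest, at 13.51 and 13.52 in WT. Flt3 (-0.24) and Cd34 (-0.26) overlapped between E2A knockout and WT arrays. Cd27, Dntt, Cd93, Kit, Notch1, Il7r and Rag1 were below WT on every E2A knockout array, with differences from -0.89 (Cd27) to -3.86 (Rag1). Marker sums of some other cell types differed between genotypes too. For mature B and plasma cells (6 of 7 markers on the array, with Ms4a1, Cr2 and Fcer2a below the median on all arrays) the sum was 9.38 to 9.54 in WT, 9.84 to 9.89 in HEB knockout and 10.22 to 10.88 in E2A knockout cells. Nearly all of that sum was 1 gene, Sdc1 (9.27 and 9.42, 9.76 and 9.79, and 10.14 to 10.80), while Jchain differed by -0.29 without E2A. For plasmacytoid dendritic cells (5 of 5, 0 of them below the median on all arrays) the sum was 11.45 to 11.46, 11.01 to 11.09 and 10.10 to 10.98. Its members disagreed without E2A, with Ccr9 at -5.28, Cox6a2 at -1.80 and Tcf4 at -0.41, but Siglech at 0.79. For granulocytes and monocytes (11 of 11, 0 below) it was 11.67 to 11.80, 12.24 to 12.77 and 11.46 to 12.34, with Mpo the brightest. Its members disagreed too. Ltf, Camp, S100a8, S100a9 and Ngp differed from WT by 2.80 to 3.63 without HEB, with both HEB knockout arrays above WT. Camp, S100a8, S100a9 and Ngp read higher still on E2A_KO replicate 3 (7.53, 8.63, 6.99 and 8.65) than on HEB_KO replicate 1 (7.01, 7.66, 6.29 and 7.55). Ltf did not (5.60 and 5.71). S100a8 also stood apart between the WT arrays (3.35 and 6.87). Csf1r (-1.36), Csf3r (-0.88) and Lyz2 (-1.49) were below WT on all 4 E2A knockout arrays. None of these granulocyte and monocyte genes passed the test. For megakaryocytes and mast cells (5 of 5, 0 below) the sum was 6.84 to 7.25, 7.03 to 7.47 and 7.33 to 7.99. Each of these 5 genes overlapped between E2A knockout and WT arrays. Their differences disagreed in sign, with Cpa3 at 0.95, Pf4 at 0.61, Itga2b at 0.27 and Mcpt8 at 0.16, but Gp9 at -0.40. Pf4 read 6.26 on E2A_KO replicate 1, against at most 4.75 on the other arrays. The sums overlapped between WT and E2A knockout arrays for T cells (7 of 7, Cd3g below; 7.02 to 7.55, 7.74 to 7.86 and 7.19 to 8.31) and for NK and innate lymphoid cells (5 of 6, with Ncr1, Eomes and Tbx21 below; 7.73 to 8.23, 6.80 to 7.83 and 6.65 to 8.96). They also did for stem cells (3 of 5, Slamf1 below; 5.50 to 5.91, 5.04 to 5.87 and 4.98 to 5.93) and erythroid cells (4 of 7, Hba-a1 below; 6.07 to 6.72, 6.06 to 6.45 and 6.30 to 9.56). Of the erythroid genes, Car1 read 8.93 and Klf1 7.81 on E2A_KO replicate 1, against at most 5.15 and 5.35 on the other arrays. Epor did not stand out there (4.98, against up to 5.45). The part of these cell types in the members' differences was not tested. In such bulk samples fewer cells of a type and less RNA per cell cannot be told apart. The array of WT replicate 2 was closest over all probe sets to that of HEB_KO replicate 1 (Pearson r = 0.992 across probe sets, against 0.977 between the WT arrays). These 2 arrays also had the lowest hybridization control signal, 10.292 and 10.318, against 11.404 to 12.622 on the others, with all 4 E2A knockout arrays at 11.519 or higher. The 3′ minus 5′ signal of the actin control, a sign of RNA quality, was 3.371 and 3.579 on the HEB knockout arrays, below the WT (3.843 and 4.451) and E2A knockout arrays (3.862 to 4.781). The upper quartile of intensity was 54.56 to 62.54 on the E2A knockout arrays and 63.02 to 68.28 on the other 4. The part of these measures in the members' differences was not tested.

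Because both knockouts remove E-box binding proteins, the RefSeq windows at the starts of the member genes (GRCm38.p6, 250 bases before to 50 after each start) were searched on both strands for CAGCTG and for CAGGTG, which reads CACCTG on the other strand. Both are also matches of CANNTG. RefSeq windows were found for 7 members, 17 windows in all, and 4 of the 17 held CAGCTG or CAGGTG, against 32.9% of 32851 windows over all genes. CANNTG stood in 10 of the 17, against 72.3% of all windows. The 4 windows with a match are shown because they belong to a member that read lower on every E2A knockout array than on the WT arrays (Satb1 and Erg) and to one that did not (Runx1). Capitals mark the matches, and each sequence runs 5′ to 3′ on the gene's strand, which is the minus strand for all 4. A match is only a stretch of letters and is no measured binding site.

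Satb1, chr17:51833241-51833540: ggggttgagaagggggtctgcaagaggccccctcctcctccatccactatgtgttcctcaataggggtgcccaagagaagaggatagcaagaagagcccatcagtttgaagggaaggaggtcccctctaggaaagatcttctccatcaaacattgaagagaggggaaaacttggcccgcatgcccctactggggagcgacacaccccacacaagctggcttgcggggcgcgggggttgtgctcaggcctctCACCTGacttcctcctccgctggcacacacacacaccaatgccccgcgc
Satb1, chr17:51826539-51826838: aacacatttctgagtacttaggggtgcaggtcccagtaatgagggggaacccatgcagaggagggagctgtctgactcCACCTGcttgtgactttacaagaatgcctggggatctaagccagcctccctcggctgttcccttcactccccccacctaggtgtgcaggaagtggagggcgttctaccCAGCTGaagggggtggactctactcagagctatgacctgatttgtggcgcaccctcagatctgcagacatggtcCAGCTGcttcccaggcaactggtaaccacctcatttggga
Erg, chr16:95459299-95459598: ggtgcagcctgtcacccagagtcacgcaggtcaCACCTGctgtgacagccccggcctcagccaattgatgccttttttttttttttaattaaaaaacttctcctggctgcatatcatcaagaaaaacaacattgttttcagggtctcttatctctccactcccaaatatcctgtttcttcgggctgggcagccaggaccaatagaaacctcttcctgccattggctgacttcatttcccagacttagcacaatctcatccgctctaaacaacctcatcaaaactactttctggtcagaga
Runx1, chr16:92826025-92826324: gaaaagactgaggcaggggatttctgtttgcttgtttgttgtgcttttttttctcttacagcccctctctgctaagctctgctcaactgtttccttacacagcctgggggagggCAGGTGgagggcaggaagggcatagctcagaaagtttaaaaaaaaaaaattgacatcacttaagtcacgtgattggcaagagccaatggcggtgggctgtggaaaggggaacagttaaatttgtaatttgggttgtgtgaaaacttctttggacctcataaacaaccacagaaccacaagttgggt

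The windows found for Ikzf1, Myb, Bcl11a and Mef2c held neither CAGCTG nor CAGGTG, which says only that these letters are not in those windows. Ets1, Ikzf2 and Ikzf3 are named without a window.

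The first comparison, of E2A knockout with WT cells, addresses how these factors' transcripts stand without E2A. None of the 10 genes rose or fell in this comparison, in which limma called 0.443% of all genes. At an unadjusted p under 0.05 there were 3, Ets1, Satb1 and Erg, all lower, against 9.80% of all genes lower at that level. The 4 E2A knockout arrays lay below both WT arrays for 5 of the 10, Ets1, Erg, Satb1, Bcl11a and Ikzf1, against 15.4% of all genes. In all, 8 of the 10 had a negative difference, with a median of -0.34 against -0.053 over all genes tested. Across the 40 probe sets, none passed (background 0.0822%), 14 were lower at an unadjusted p under 0.05 (6.04%), 16 had all E2A knockout arrays below WT (8.63%) and 1 had them all above (13.4%). These shares are over all probe sets, dim ones included, whereas 36 of the 40 passed the filter. The 14 came from Bcl11a (5), Ets1 (4), Satb1 (3), Erg (1) and Ikzf1 (1). Probe sets of 1 gene are not independent, here and in the comparisons below, so such counts are not counts of genes. The median of all genes was -0.157 among those that passed the stricter filter at the 75th percentile.

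**Figure D1:**
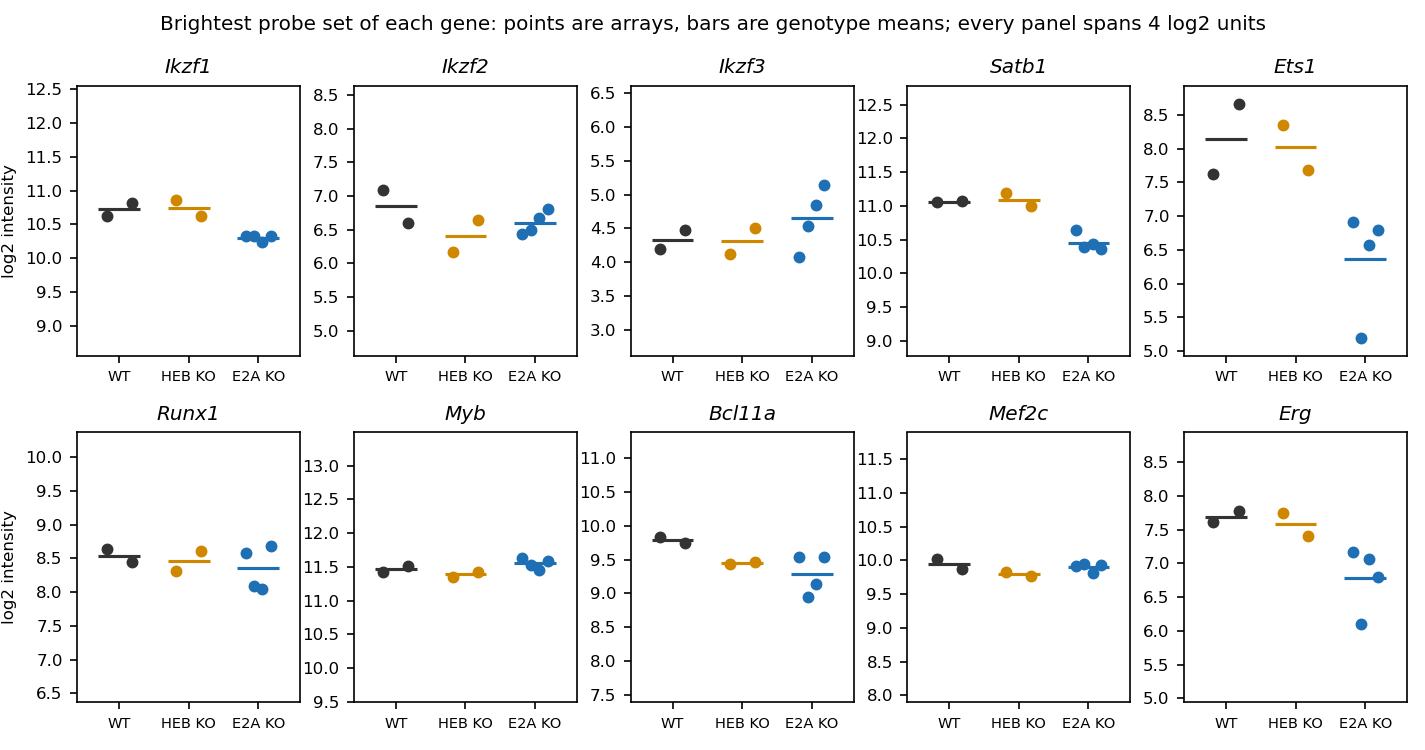
Log2 intensity (vertical axis, 4 units in each panel) of the brightest probe set of each member gene on the 8 arrays, by genotype on the horizontal axis. Points are arrays and bars are genotype means. For Ets1, Erg, Satb1, Bcl11a and Ikzf1 all 4 E2A knockout points lie below both WT points, and no gene passed the threshold.

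Ets1, an ETS factor that lymphocytes need for their development and survival, had the largest difference of the 10. Its brightest probe set (1426725_s_at) read 7.62 and 8.66 in WT, 8.35 and 7.69 in HEB knockout and 6.92, 5.20, 6.58 and 6.79 in E2A knockout cells. The WT and HEB knockout arrays overlapped and every E2A knockout array was below them, the second one farthest. The E2A knockout difference from WT was -1.77 (3.41-fold, SE 0.51, 95% interval -2.92 to -0.62), with an adjusted p of 0.1875. Leaving out WT replicate 1 gave -2.29, leaving out WT replicate 2 gave -1.25, and adding the hybridization control signal as a covariate gave -1.18.

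At the other 3 probe sets of Ets1 every E2A knockout array was again below both WT arrays. Probe set 1452163_at read 5.46 and 7.09 in WT, 6.94 and 6.19 in HEB knockout and 3.55, 2.47, 2.84 and 2.93 in E2A knockout cells. Its WT arrays stood further apart than its 4 E2A knockout arrays, all of which were below their arrays' medians (3.906 to 3.943). The measured difference was -3.33 (SE 0.48, 95% interval -4.43 to -2.23). With each E2A knockout array raised to its own median, the WT mean was 5.10-fold higher, with no allowance for the spread between arrays. This probe set was the nearest of the 40 to the threshold, at an adjusted p of 0.0730 over all probe sets and 0.0301 under the variance model with trend and robust settings. It ranged from -4.15 (WT replicate 1 left out) to -2.51 (WT replicate 2 left out), and the hybridization control covariate gave -2.26. Probe set 1422028_a_at read 5.32 and 5.42 in WT, 4.55 and 5.67 in HEB knockout and 4.36, 2.88, 3.49 and 3.31 in E2A knockout cells, which gave -1.86 (SE 0.43). Probe set 1422027_a_at read 4.70 and 4.65, 4.25 and 4.81, and 4.02, 3.74, 3.52 and 4.31, which overlapped with HEB knockout and gave -0.78 (SE 0.26) against WT. With the mean of its probe sets in place of the brightest, Ets1 was lower in E2A knockout cells by 1.93 on the log2 scale (SE 0.32). It passed in limma over the 10975 genes of that setting (adjusted p = 0.0464), the 1 alternative at gene level in which a member passed. That mean takes in 1452163_at, which was below the array median on all 4 E2A knockout arrays.

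Erg, the other ETS factor, acts in stem cells and multipotent progenitors and in early lymphoid cells. Its brighter probe set (1440244_at) read 7.61 and 7.78 in WT, 7.75 and 7.41 in HEB knockout and 7.17, 6.10, 7.07 and 6.80 in E2A knockout cells. All E2A knockout arrays were below the other 4, again with the second lowest. The difference from WT was -0.91 (1.88-fold, SE 0.31, 95% interval -1.62 to -0.20, adjusted p = 0.2685). The dimmer one (1425370_a_at) read 4.78 and 4.87, 4.64 and 4.06, and 4.72, 3.71, 3.87 and 4.74, with both WT arrays highest. There the E2A knockout difference was -0.57 (SE 0.34), the HEB knockout difference was -0.48 (SE 0.40), and the knockouts overlapped.

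Satb1 folds chromatin into loops and marks the most lymphoid of the multipotent progenitors. Its brightest probe set (1416007_at) read 11.05 and 11.07 in WT, 11.19 and 10.99 in HEB knockout and 10.64, 10.39, 10.43 and 10.36 in E2A knockout cells. The WT and HEB knockout arrays overlapped, and the 4 E2A knockout arrays were all lower. The difference from WT was -0.61 (1.52-fold, SE 0.20, 95% interval -1.05 to -0.16, adjusted p = 0.2462). The next probe sets by mean signal, 1416008_at and 1436182_at, differed by -0.80 (SE 0.21) and -0.75 (SE 0.29) with no overlap between E2A knockout and WT arrays.

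The 2 dimmest probe sets of Satb1 had a different pattern. Probe set 1439449_at read 8.68 and 7.10 in WT, 6.57 and 7.08 in HEB knockout and 7.59, 7.82, 8.96 and 6.46 in E2A knockout cells. Probe set 1439315_at read 5.70 and 5.53, 4.54 and 3.96, and 5.02, 5.69, 6.14 and 3.79. In both the E2A knockout arrays spread over a range wider than the WT arrays and the HEB knockout arrays were below WT, with HEB knockout differences of -1.07 (SE 0.77) and -1.37 (SE 0.66). Which part of the transcript each probe set reads was not analysed here. Over the mean of all 5 probe sets Satb1 differed from WT by -0.56 without E2A and by -0.55 without HEB, so the separation of the knockouts depended on the probe sets used.

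Bcl11a had lower means without either E protein. Its brightest probe set (1419406_a_at) read 9.83 and 9.75 in WT, 9.44 and 9.46 in HEB knockout and 9.54, 8.94, 9.14 and 9.54 in E2A knockout cells. Both WT arrays were above all 6 knockout arrays, and the knockouts overlapped. The difference from WT was -0.50 (1.41-fold, SE 0.24, 95% interval -1.03 to 0.04, adjusted p = 0.4016) for E2A and -0.34 (SE 0.27, 95% interval -0.96 to 0.28) for HEB knockout cells.

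All 7 probe sets of Bcl11a had negative differences in both knockouts, from -1.82 to -0.30 for E2A and from -1.86 to -0.34 for HEB. Probe set 1457072_at read 7.29 and 7.41 in WT, 7.03 and 6.32 in HEB knockout and 6.15, 6.50, 5.90 and 5.80 in E2A knockout cells (E2A difference -1.26, SE 0.26). Probe set 1456632_at read 9.13 and 9.05, 8.45 and 8.18, and 8.52, 7.49, 7.80 and 8.43 (E2A difference -1.03, SE 0.30). Probe set 1426552_a_at read 6.65 and 6.94, 6.46 and 5.99, and 6.22, 5.75, 5.64 and 5.95 (E2A difference -0.90, SE 0.22). Each of these had both WT arrays above all 6 knockout arrays. The largest differences came from 1447334_at, at 7.19 and 5.47 in WT, 5.06 and 3.88 in HEB knockout and 4.35, 3.79, 5.09 and 4.79 in E2A knockout cells. Its WT arrays were far apart, and the E2A difference of -1.82 became -0.96 if WT replicate 1 was left out and -2.68 if WT replicate 2 was. The remaining 1447335_x_at and 1453814_at overlapped between E2A knockout and WT arrays, with differences of -0.30 (SE 0.27) and -0.41 (SE 0.28).

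**Figure D2:**
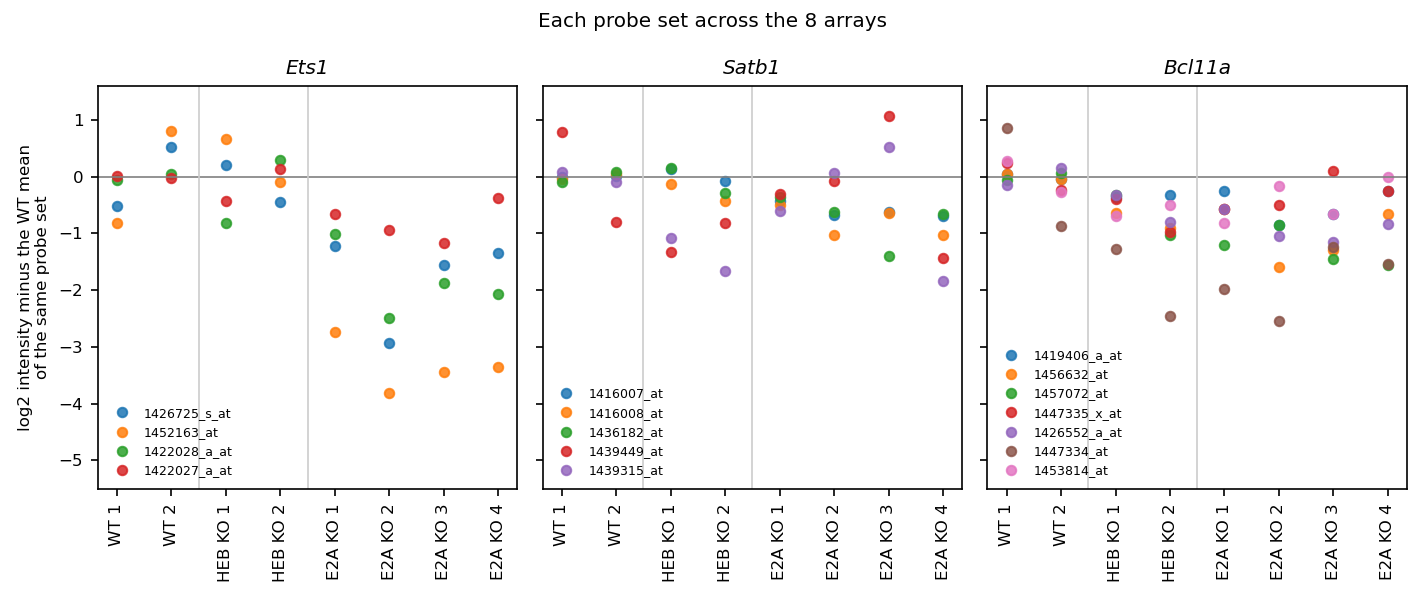
Log2 intensity minus the WT mean of the same probe set (vertical axis) on each of the 8 arrays (horizontal axis), for all probe sets of Ets1, Satb1 and Bcl11a. All 4 probe sets of Ets1 are lower on every E2A knockout array than on the WT arrays and overlap with WT on the HEB knockout arrays, the means of all 7 of Bcl11a are below WT in both knockouts, and 2 of Satb1 spread widely.

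Ikzf1 encodes Ikaros, which multipotent progenitors need to become lymphoid. Its brighter probe set (1436312_at) read 10.63 and 10.82 in WT, 10.86 and 10.62 in HEB knockout and 10.32, 10.33, 10.24 and 10.32 in E2A knockout cells. The E2A knockout arrays lay close together and below all others, while WT and HEB knockout overlapped. The difference from WT was -0.42 (1.34-fold, SE 0.19, 95% interval -0.86 to 0.01, adjusted p = 0.3849). The dimmer probe set (1421303_at) ranged from 4.18 to 4.71 over all arrays with a difference of 0.09 (SE 0.20). The mean of both differed by -0.17.

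Ikzf2 encodes Helios and Ikzf3 encodes Aiolos, Ikaros relatives used in T cells and in later B cells. Ikzf2 read 7.09 and 6.60 in WT, 6.17 and 6.65 in HEB knockout and 6.44, 6.49, 6.67 and 6.80 in E2A knockout cells (probe set 1437542_at). The 3 genotypes overlapped, with differences of -0.25 (SE 0.24, 95% interval -0.80 to 0.31) for E2A and -0.44 (SE 0.28, 95% interval -1.08 to 0.20) for HEB. Ikzf3 read 4.19 and 4.47, 4.12 and 4.50, and 4.08, 4.54, 4.84 and 5.14, close to the array medians, with an E2A difference of 0.32 (SE 0.31, 95% interval -0.37 to 1.01) that was -0.09 with the hybridization control covariate. The other 2 probe sets of Ikzf3 read 2.48 to 2.96 on all arrays, and 1421643_at of Ikzf2 read 2.64 to 3.40. Probe set 1456956_at of Ikzf2 had its E2A knockout arrays (3.56, 3.63, 3.72 and 3.16) below WT (4.03 and 3.79), with a difference of -0.39 (SE 0.23).

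Runx1, the DNA-binding partner of Cbfb, founds the blood stem cell and acts again in lymphoid progenitors. At its brightest probe set it read 8.64 and 8.44 in WT, 8.31 and 8.61 in HEB knockout and 8.58, 8.09, 8.04 and 8.69 in E2A knockout cells, and these overlapped throughout (E2A difference -0.19, SE 0.26, 95% interval -0.77 to 0.40). Its 6 probe sets differed between E2A knockout and WT by -0.42 to 0.36, with 3 of 6 negative. Probe set 1452530_a_at was the 1 of the 40 whose E2A knockout arrays (4.54, 4.77, 4.38 and 4.35) were all above WT (4.33 and 3.97).

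Myb, which keeps progenitors dividing and opens the B-cell program, read 11.43 and 11.51 in WT, 11.35 and 11.42 in HEB knockout and 11.63, 11.52, 11.45 and 11.59 in E2A knockout cells. The E2A difference was 0.08 (SE 0.19, 95% interval -0.35 to 0.50). It was -0.20 over the mean of its probe sets, since the dimmer ones differed by -0.21 and -0.48. Mef2c, a factor that favours the lymphoid over the myeloid choice, read 10.02 and 9.87, 9.83 and 9.77, and 9.92, 9.95, 9.81 and 9.93, an E2A difference of -0.04 (SE 0.19, 95% interval -0.46 to 0.38). Its probe sets ranged from -0.48 to 0.62 in this comparison, the highest being 1421028_a_at, which read 6.93 and 7.58 in WT and 8.0, 7.90, 7.37 and 8.24 in E2A knockout cells.

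**Figure D3:**
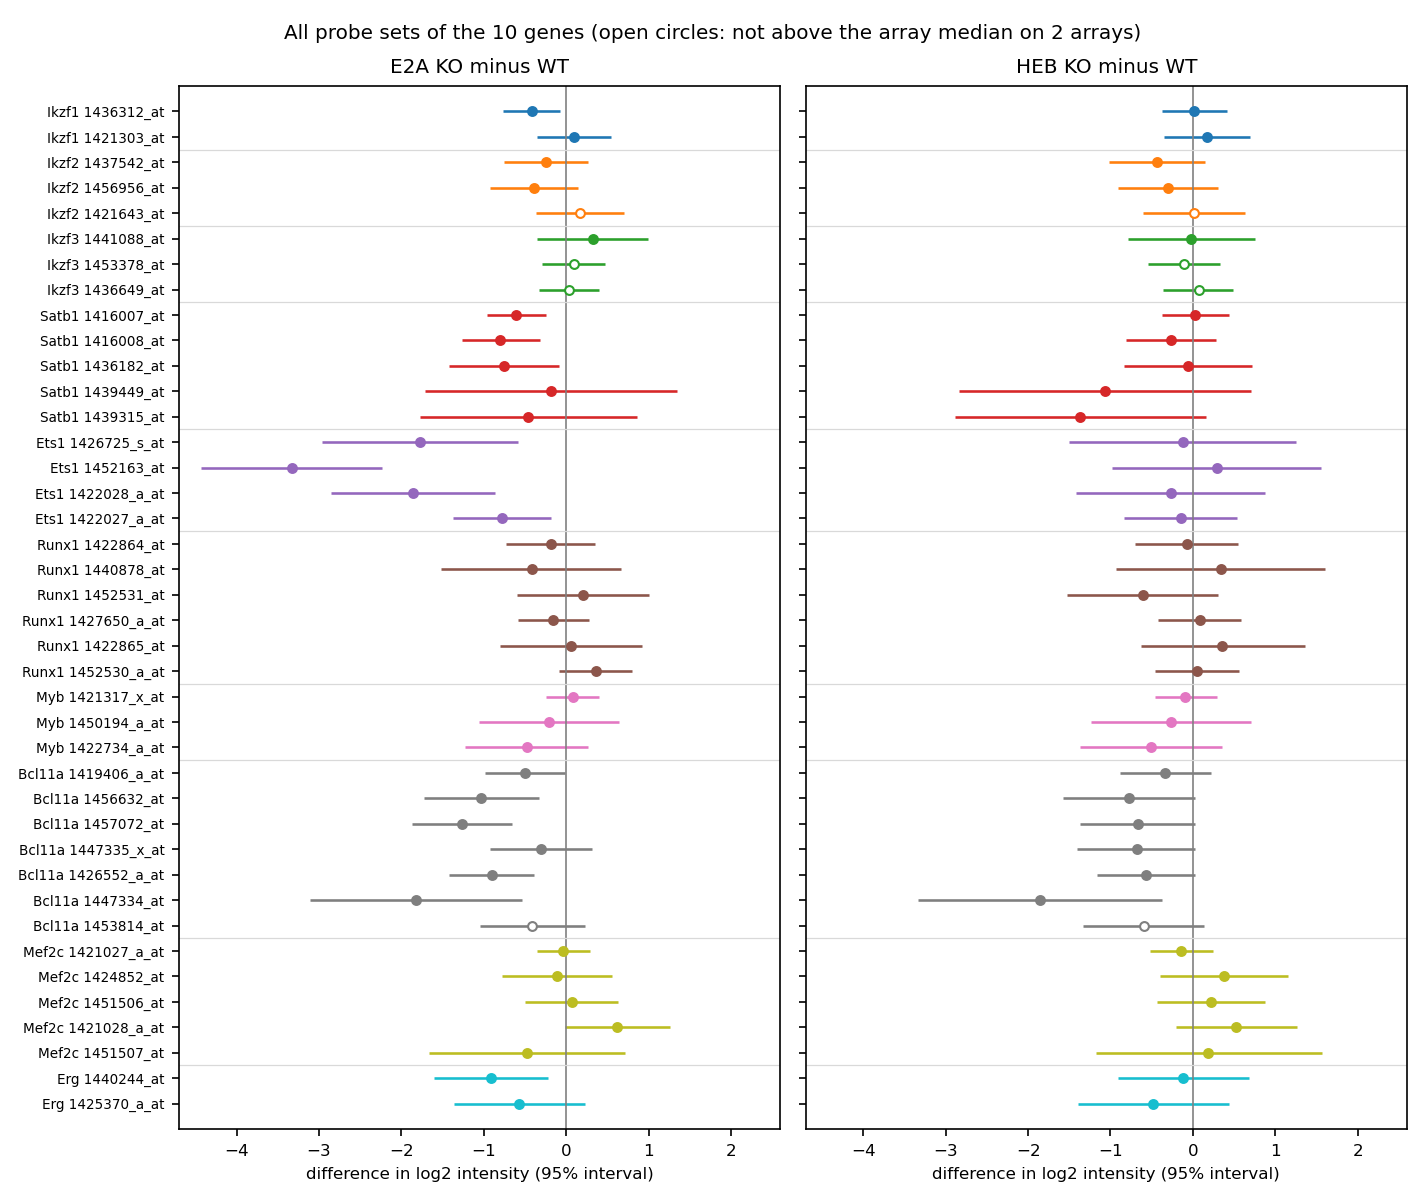
Difference in log2 intensity with its 95% interval (horizontal axis) of each of the 40 probe sets (vertical axis), for E2A knockout minus WT on the left and HEB knockout minus WT on the right. The intervals come from the limma fit over all probe sets and are not adjusted for the number of tests, and open circles mark the 4 probe sets that did not pass the filter. The 4 probe sets of Ets1 differ by -3.33 to -0.78 on the left and by -0.27 to 0.29 on the right, and those of Bcl11a are negative in both.

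HEB knockout cells were set against the same WT arrays. None of the 10 genes rose or fell, and none had an unadjusted p under 0.05 in limma, where 0% of all genes passed the adjusted and 2.61% the unadjusted level. Tcf12, the gene targeted in these cells, did not pass the limma test either (-2.01, SE 0.26, adjusted p = 0.3280). The test could thus miss a difference of that size. The median difference was -0.10 against 0.086 over all genes. Bcl11a, Myb and Mef2c had both HEB knockout arrays below both WT arrays at their brightest probe sets (3 of 10, against 11.4% of all genes), with gaps of 0.01 for Myb and 0.03 for Mef2c. Across probe sets 0 of 40 passed (0% of all), 13 lay below WT (15.6%) and 2, both of Mef2c, lay above (18.7%).

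Of the 13 probe sets that lay below WT, 7 were those of Bcl11a, all it has on the array. The 1 probe set of the 40 with an unadjusted p under 0.05 was also of Bcl11a, 1447334_at (-1.86, SE 0.64, against 1.65% of all probe sets lower at that level). It was -1.0 with WT replicate 1 left out and -2.72 with WT replicate 2 left out. For Ets1 the HEB knockout difference was -0.12 (SE 0.58, 95% interval -1.45 to 1.20) at the brightest probe set, with a sign that depended on the WT array used (-0.64 if replicate 1 was left out, 0.40 if replicate 2 was). For Satb1 it was 0.03 (SE 0.23, 95% interval -0.48 to 0.54), for Ikzf1 0.01 (SE 0.22, 95% interval -0.49 to 0.52), for Erg -0.12 (SE 0.36) and for Runx1 -0.07 (SE 0.30).

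The knockouts were then compared directly. No member gene passed (0.117% of all genes did), and 4 were lower at an unadjusted p under 0.05, against 13.8% of all genes. With the mean of its probe sets Satb1 differed here by -0.01. These 4, Ets1 (-1.65, SE 0.51, adjusted p = 0.1935), Satb1 (-0.64, SE 0.20, adjusted p = 0.1942), Erg (-0.79, SE 0.31, adjusted p = 0.2577) and Ikzf1 (-0.44, SE 0.19, adjusted p = 0.3021), also had every E2A knockout array below both HEB knockout arrays, against 21.6% of all genes. Myb had them all above at its brightest probe set, 1421317_x_at (0.16, SE 0.19), with a gap of 0.03, against 7.82%. At its probe sets 1450194_a_at and 1422734_a_at the knockouts overlapped, with differences of 0.06 and 0.03. Over probe sets 0.00222% of all passed and none of the 40 did, 9 were lower (7.38%) and 1, of Runx1, higher (4.11%) at an unadjusted p under 0.05. The arrays were apart for 8 lower (10.9%) and 3 higher probe sets (12.5%).

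Ets1 probe set 1452163_at, below the array median on all 4 E2A knockout arrays, had a measured difference of -3.62 between the knockouts (SE 0.48, adjusted p = 0.0987, and 0.0449 with the trend and robust settings). With those arrays raised to their medians the HEB knockout mean was 6.24-fold higher, again with no allowance for the spread between arrays. For Bcl11a the knockouts differed by -0.16 (95% interval -0.70 to 0.38) at the brightest probe set and by -0.59 to 0.38 over all 7, with no probe set apart. The test thus found no difference between the knockouts for Bcl11a, within an interval that holds differences as large as either loss gave. Since both knockouts were compared with the same WT arrays, their differences from WT share the error of those arrays.

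The 4 lists of related genes described next give the setting of these values, and were chosen with earlier results of these data known. Some of their genes, among them Il7r, Notch1, Rag1, Dntt, Cd27, Flt3 and Ccr9, are also among the cell type markers above. Their values are the same ones and no separate observation. Among paralogs of the members 16 of 20 were tested, 9 were negative without E2A and none passed, with 4 at an unadjusted p under 0.05 in limma (median -0.26 against -0.053 over all genes). Over all genes 54.9% were negative and 13.4% had an unadjusted p under 0.05 in either direction. Mef2a, a relative of Mef2c, came nearest. It read 7.68 and 8.33 in WT, 8.14 and 7.98 in HEB knockout and 6.73, 6.99, 6.65 and 6.61 in E2A knockout cells, which gave -1.26 (SE 0.24, adjusted p = 0.0772) with all E2A knockout arrays below the rest. Mef2d differed by -0.97 (SE 0.28, adjusted p = 0.1907), and by 0.01 over the mean of its probe sets.

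Cofactors that the members recruit, among them subunits of the NuRD deacetylase complex that Ikaros and Bcl11a bind, had 23 of 23 genes tested, 14 negative and none past the test, with 4 at an unadjusted p under 0.05 in limma (median -0.28). Mta3, a NuRD subunit, read 10.43 and 10.64 in WT, 10.58 and 10.34 in HEB knockout and 9.04, 7.46, 9.31 and 7.03 in E2A knockout cells. Its E2A knockout arrays were all lower and widely spread (difference -2.32, SE 0.60, adjusted p = 0.1474), and the mean of its probe sets differed by -1.17. Chd3, a NuRD helicase, differed by -0.80 (SE 0.26, adjusted p = 0.2378). Against HEB knockout cells 19 of these 23 were negative, against 62.9% of all genes (median -0.63 against -0.163), with none past the test.

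Of other transcription factors of early lymphoid progenitors 22 of 24 were tested and 18 were negative without E2A (median -0.54). In limma 8 had an unadjusted p under 0.05, against 13.4% of all genes, and 1 fell, against 0.443%. This was Foxo1, which drives early B-cell development (-2.19, SE 0.35, adjusted p = 0.0416). Over the mean of its probe sets Foxo1 differed by -0.92 and did not pass in limma (adjusted p = 0.1473). Nor did Foxo1 pass with no filter (0.0556), with only the genotypes compared (0.0830) or with the replicate block (0.1471). It also did not with E2A_KO replicate 2 or 4 left out (0.0889 and 0.0642). Of lymphoid program genes that the members are known to act on 16 of 18 were tested and 15 were negative (median -0.92). In limma 9 had an unadjusted p under 0.05, against 13.4% of all genes, and 3 fell, against 0.443%. The 3 that fell were Ccr9, a thymus homing receptor (measured difference -5.28, SE 0.42, adjusted p = 0.0033), Notch1, the receptor of T-lineage commitment (-2.09, SE 0.27, adjusted p = 0.0195), and Il7r, the interleukin 7 receptor chain (-2.15, SE 0.32, adjusted p = 0.0330). Il7r encodes CD127, a marker the cells were sorted on, as is FLT3, whose gene is also in this list. The part of the sort gate in their levels was not tested. Ccr9 was below the array median on 2 of the 4 E2A knockout arrays. With these raised to their medians its WT mean was 30.8-fold higher, with no allowance for the spread between arrays. Over the mean of its probe sets Ccr9 was lower by 1.75 on the log2 scale. It passed in limma over the 10975 genes of that setting (adjusted p = 0.0098), while Notch1 differed by -1.36 (adjusted p = 0.0556). Il7r did not pass in limma with only the genotypes compared (adjusted p = 0.0717) or with the replicate block (0.0874). Notch1 did not with the replicate block (0.0976). With WT replicate 1 left out Foxo1, Notch1 and Il7r no longer passed (adjusted p from 0.1303 to 0.1492). With WT replicate 2 left out none of the 4 did (0.0571 for Ccr9 to 0.3318 for Foxo1). With the hybridization control covariate none of the 4 did either (0.2230 for Ccr9 to 0.5405 for Foxo1), with differences of -4.76 (SE 0.58) for Ccr9, -2.05 (SE 0.49) for Il7r, -1.73 (SE 0.36) for Notch1 and -1.65 (SE 0.45) for Foxo1. Without HEB no gene of the 4 lists passed, with medians of -0.02, 0.12, -0.12 and -0.19 in the order given, against 0.086 over all genes. Between the knockouts, of these lists' genes, Ccr9 passed (-3.88, adjusted p = 0.0372), though not with HEB_KO replicate 1 left out (0.3062), HEB_KO replicate 2 left out (0.1331), or E2A_KO replicate 1 or 4 left out (0.0737 and 0.0605). Nor did it over the mean of its probe sets (-1.08, adjusted p = 0.0770), with the replicate block (-4.12, adjusted p = 0.1338), with the hybridization control covariate (-3.40, adjusted p = 0.4393) or without WT replicate 2 and HEB_KO replicate 1 together (-3.42, adjusted p = 0.4697).

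**Figure D4:**
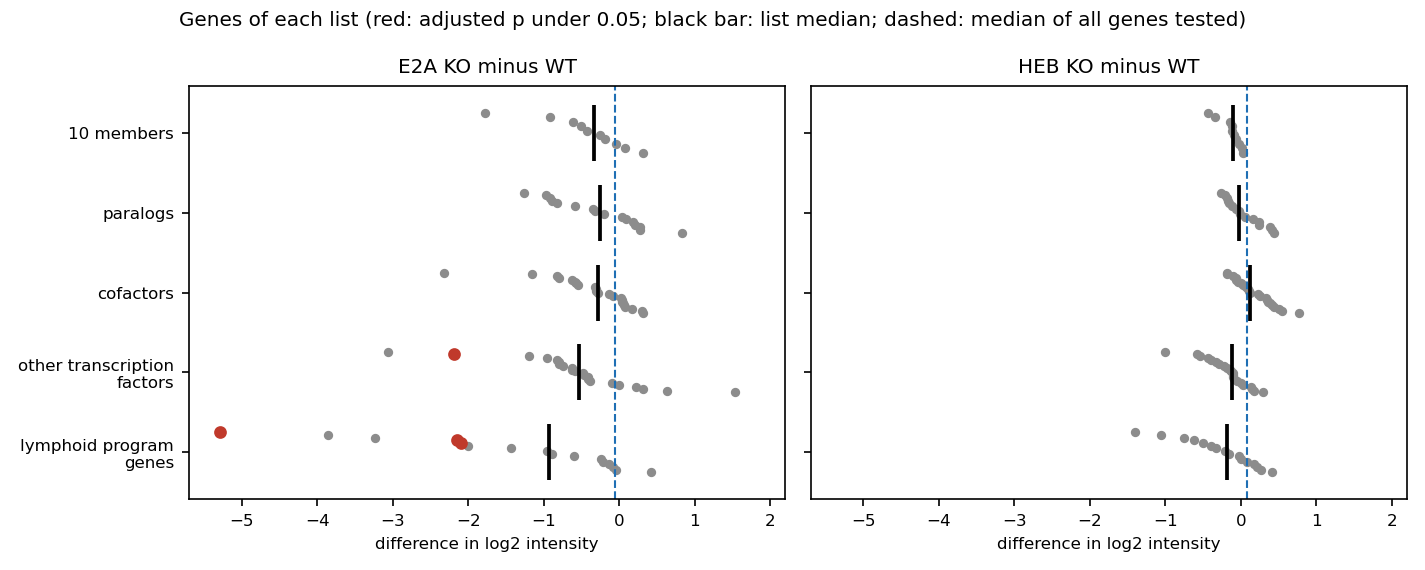
Difference in log2 intensity from WT (horizontal axis) of each tested gene of the members and of 4 related lists (vertical axis), without E2A on the left and without HEB on the right. Red points passed the threshold, black bars are list medians and the dashed line is the median of all genes tested. The members' median is -0.34 without E2A and -0.10 without HEB, and the 4 red points are Foxo1, Ccr9, Notch1 and Il7r.

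The genes whose profile over the 8 arrays was nearest to that of a member were found by the root mean square difference of log2 values after each gene's mean was removed, over 11956 other genes. For Ikzf1 they were Slc25a45 (0.057), Atad1 (0.059) and Emc3 (0.064), against a median distance of 0.386. For Satb1 they were Mapk1ip1l (0.081), Crcp (0.082) and Psmb6 (0.099), against 0.437. For Ets1 they were Icos (0.201), Kdm7a (0.232) and Zyx (0.313), against 1.03. These 3 differed from WT by -1.55, -1.58 and -1.40 without E2A and by 0.21, -0.18 and -0.11 without HEB. They were picked for their likeness on the same 8 arrays, so differences near those of Ets1 (-1.77 and -0.12) follow from the choice. The nearest genes to Ets1 lay further from it than those of Ikzf1 and Satb1 did from theirs, and distances between flat profiles are small by construction.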

How the data were processed

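RNA of sorted progenitors was amplified, labelled with biotin and hybridized to 8 Affymetrix arrays, per the labels' protocols. The deposited intensity values were summarised by RMA, as the submitters' processing notes state without a version. The intensity values the authors deposited were on a linear scale, judged by their range, so log2 was taken with no further normalization. Of 45101 probe sets, 64 were controls and 34945 named 1 gene, 932 several and 9160 none in GEO's annotation. Symbols were updated by gene ID through RefSeq (GRCm38.p6), which matched 34741 of the 34945.

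Each of 18193 genes was represented by its brightest probe set, and 11957 passed the filter. limma 3.58.1 (R 4.3.3) was fitted with a mean per genotype and 5 residual degrees of freedom, once on these genes and once on all 45037 probe sets without a filter, two-sided, at a Benjamini-Hochberg adjusted p under 0.05. The median SE of a difference was 0.280 (E2A) and 0.323 (HEB) against WT, so the number of arrays limits precision. Scripts were tested on simulated data. The members and lists were chosen with earlier results of these data known. Genes named were all members, the targeted genes, from each list the called genes in E2A knockout against WT or else the 2 with the smallest p, and the 3 nearest profiles of Ikzf1, Satb1 and Ets1. Mta3's and Mef2a's array values were chosen after they were seen. Replicate numbers were not used as pairs. No array was left out of the values reported. Fold values with arrays raised to their medians were added after the data were seen.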

Additional observations from a re-analysis of the deposited data

Results flagged for a closer look

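Among the 4 E2A knockout arrays, Mef2c read 9.81 on E2A_KO replicate 3 at its brightest probe set (1421027_a_at), against 9.92, 9.95 and 9.93 on the others. The gap to the nearest array made up 0.841 of the group's range, over Dixon's critical value for 4 values. All 40 probe sets were examined in this way and this was the 1 beyond the limit, where chance alone gives about 1 in 20 groups. The range is small in absolute terms, and this array lies within the range of the WT and HEB knockout arrays.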

How the results depend on the processing

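No member gene passed the threshold in any comparison, with all arrays or without any 1 array. In the alternatives 1 did so, Ets1 in E2A knockout against WT over the mean of its probe sets. With eBayes trend and robust settings 1 member probe set passed in E2A knockout against WT and 1 against HEB knockout, both 1452163_at of Ets1. Ikzf3 was not tested with the stricter filter or over the mean of probe sets, which it did not pass. The counts over all features were less stable. Genes called for E2A knockout against WT numbered 53, and 91 with trend and robust, 26 with only the compared genotypes, 12 with the replicate block, 1 with the hybridization control as a covariate and 0 without WT 2 and HEB_KO 1 together, and 2 (without WT replicate 2) to 104 (without E2A_KO replicate 3) without each array in turn. Probe sets numbered 37, and 58, 5, 0, 0 and 0 in the same order, and 2 to 65. For E2A against HEB knockout 14 genes were called, and 42, 6, 3, 1 and 0 in that order, and 1 to 21. Probe sets numbered 1, and 22, 3, 0, 1 and 2, and 1 to 3. For HEB knockout against WT 0 genes were called in all settings, and 0 to 1 probe sets without each array. Of the called genes, 88.7% were lower without E2A, and 66.7% with the replicate block. Against HEB knockout 85.7% were lower, and 70% with cyclic loess. The sign of an uncalled member gene changed in 6 of 108 values without E2A and 10 of 108 without HEB, and in 1 and 10 of 80 without each array. The median of all genes was -0.053 without E2A and 0.066 with the covariate, and 0.061 with no filter.

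Whether equal replicate numbers mark a shared sort is not in the labels and could not be told from these values. The deviations of same-numbered WT and HEB knockout arrays from their group means correlated at -0.28. With 2 arrays in each group, replicates 1 and 2 must give the same value, so this is 1 number. For replicates 1 and 2, WT with E2A knockout arrays gave -0.15 and -0.09, and HEB knockout with E2A knockout arrays gave 0.15 and -0.01. A replicate block with the WT numbers crossed, chosen after seeing the data, gave 91 genes called for E2A knockout against WT and 0 probe sets in either E2A comparison.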
